A study of Mus musculus with 17 samples.

Results

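The broad H3.3 domains of the lens epithelium were 829 regions of chromosomes 1 to 19. They were selected on length: an island, a stretch of the genome in which SICER2 had called an excess of H3.3 reads, was kept where it was at least 8000 bp long in either epithelium library, and kept islands with at least 1 bp in common were merged. This rule retained 603 of the 10365 islands of epithelium replicate 1 and 422 of the 14405 islands of epithelium replicate 2. For scale, all epithelium islands merged into 18183 regions, and the islands of all 4 libraries into 38295. Because length in the epithelium chose the domains, their epithelial length is given as a description. Their cover in the other epithelium library and in fibers, the annotation and the sequence were not part of the rule.

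The libraries came from newborn CD1 mice, titled P1 and described in the protocol as P0.5, whose lenses were dissected into epithelium and fibers, with 150 lenses pooled per sample by the labels and a larger number by the study's methods, no treatment, and 2 biological replicates per compartment. Chromatin was precipitated with an anti-H3.3 antibody. Reads were mapped to mm10 and islands were called in each library on its own. Total sequencing depth was not given in the sources used here. Islands held 1318732 and 1418460 reads on chromosomes 1 to 19 in epithelium replicates 1 and 2, but 5027141 and 5341930 in the fiber replicates, and fibers had 5724 and 4816 islands of at least 8000 bp. A wider island and more reads cannot be told apart from deeper libraries with these lists, so the length and density of fiber islands are printed beside the epithelial values without reading a difference between compartments from them.

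H3.3 is the histone H3 variant that is deposited outside of DNA replication, mainly at active promoters, along transcribed genes and at enhancers, and also at some repeated sequences. The lens epithelium is the single layer of dividing and quiescent cells at the front of the lens. Its cells leave the cell cycle at the equator and become elongated fibers that are filled with crystallins, the structural proteins that give the lens its refractive power. Lens identity in the epithelial libraries was checked on marker genes. Of 8 lens markers, 6 had a start in an epithelium island, and 2, Cryaa and Pax6, had a start in a broad domain. None of 7 retinal, 6 pigment cell, 5 corneal and surface, and 4 muscle markers had a start in an epithelium island, and of 7 blood and vessel markers only the endothelial cadherin gene Cdh5 did.

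Promoter windows are printed for genes that stand for the kinds of domain described here: Slc2a1, with the longest domain at the start of a listed gene, Cryaa and Pax6, the lens markers, Eef2, an abundant transcript, 1600014C10Rik, with no fiber island, and Cwc22, with islands in replicate 2 of each compartment only. The windows are from RefSeq (GRCm38.p6) and run from 250 bases before the start to 50 from the start on, 5′ to 3′ on the gene's strand. Capitals mark the letters of the GC box GGGCGG, the box CCAAT, the TATA element TATAAA and the E-box CACGTG, each on either strand. Matches of different motifs were allowed to overlap.
Slc2a1, chr4:119108495-119108794, plus strand: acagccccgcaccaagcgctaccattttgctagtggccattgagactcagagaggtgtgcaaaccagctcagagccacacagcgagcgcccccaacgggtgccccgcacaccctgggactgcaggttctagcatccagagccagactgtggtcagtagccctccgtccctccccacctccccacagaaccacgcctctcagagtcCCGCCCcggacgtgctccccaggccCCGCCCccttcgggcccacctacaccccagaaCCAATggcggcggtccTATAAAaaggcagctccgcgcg
Cryaa, chr17:31677681-31677980, plus strand: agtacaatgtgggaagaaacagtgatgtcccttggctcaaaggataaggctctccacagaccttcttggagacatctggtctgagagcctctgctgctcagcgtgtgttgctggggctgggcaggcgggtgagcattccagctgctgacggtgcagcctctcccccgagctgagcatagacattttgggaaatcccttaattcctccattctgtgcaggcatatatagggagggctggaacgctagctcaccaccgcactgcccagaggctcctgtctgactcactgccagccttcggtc
Pax6, chr2:105668646-105668945, plus strand: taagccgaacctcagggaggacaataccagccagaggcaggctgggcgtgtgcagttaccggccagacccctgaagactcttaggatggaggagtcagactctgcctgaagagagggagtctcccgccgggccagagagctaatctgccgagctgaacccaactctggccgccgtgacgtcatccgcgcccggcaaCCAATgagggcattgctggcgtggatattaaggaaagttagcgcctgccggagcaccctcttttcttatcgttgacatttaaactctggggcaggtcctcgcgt
Eef2, chr10:81176381-81176680, plus strand: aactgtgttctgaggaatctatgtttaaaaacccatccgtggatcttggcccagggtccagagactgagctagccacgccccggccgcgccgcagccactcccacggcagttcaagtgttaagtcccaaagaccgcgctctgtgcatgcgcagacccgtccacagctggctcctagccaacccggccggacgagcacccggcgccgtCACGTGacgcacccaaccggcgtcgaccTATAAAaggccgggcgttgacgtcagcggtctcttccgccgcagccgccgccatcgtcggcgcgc
1600014C10Rik, chr7:38182967-38183266, plus strand: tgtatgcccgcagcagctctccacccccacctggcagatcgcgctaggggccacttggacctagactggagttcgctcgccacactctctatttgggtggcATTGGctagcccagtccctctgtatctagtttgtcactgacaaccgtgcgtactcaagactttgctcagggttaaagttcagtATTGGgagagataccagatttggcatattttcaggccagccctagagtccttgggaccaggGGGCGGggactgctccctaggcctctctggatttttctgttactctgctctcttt
Cwc22, chr2:77946307-77946606, minus strand: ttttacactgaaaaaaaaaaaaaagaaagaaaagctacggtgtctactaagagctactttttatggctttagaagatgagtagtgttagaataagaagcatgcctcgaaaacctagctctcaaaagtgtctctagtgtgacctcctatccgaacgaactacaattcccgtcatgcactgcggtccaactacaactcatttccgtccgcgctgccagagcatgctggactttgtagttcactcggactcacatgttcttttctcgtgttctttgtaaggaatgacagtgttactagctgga

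Motif letters were counted on either strand over the same 300-base windows around the GENCODE starts of all protein-coding genes, read from the genome. GGGCGG, the GC box bound by Sp factors, was present in 56.8% of the 463 windows of genes with a start in a broad domain, 62.5% of 3957 windows of genes with a start in a shorter epithelium region and 43.7% of 20802 windows in all. TATAAA was present in 5.83%, 6.70% and 12.7% of the same sets, CCAAT in 40.6%, 38.0% and 38.6%, and CACGTG in 11.7%, 10.7% and 7.82%. The ratio of observed to expected CpG had a median of 0.668 at broad domains, 0.737 at shorter epithelium regions and 0.540 over all genes. The windows of Slc2a1 and Eef2 held a TATAAA, and those of Slc2a1 and 1600014C10Rik a GC box. The Cryaa and Cwc22 windows held none of the 4 motifs. Starts in broad domains were thus richer in GC boxes and poorer in TATAAA than starts in general, and on both counts close to starts in shorter epithelium regions. A match describes letters and is not a binding site.

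RNA genes present in many copies are printed because their clusters lay in broad domains. The sequences were read from GRCm38 at the RefSeq positions, on the gene's strand. Capitals mark the central 75 nt, the length of a sequencing read, or the whole gene where it is shorter.
Rn4.5s (4.5S RNA), chr6:47654921-47655094, minus strand: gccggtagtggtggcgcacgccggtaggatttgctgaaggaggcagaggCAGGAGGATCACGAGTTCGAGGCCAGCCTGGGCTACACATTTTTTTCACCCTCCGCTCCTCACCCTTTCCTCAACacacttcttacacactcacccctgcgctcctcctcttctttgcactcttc
n-TGtcc1 (glycine transfer RNA), chr1:171064699-171064770, minus strand: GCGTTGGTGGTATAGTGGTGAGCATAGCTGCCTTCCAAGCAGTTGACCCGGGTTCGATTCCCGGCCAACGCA

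The central 75 nt of the 4.5S gene occurred 11 times on chromosomes 1 to 19, X and Y, all inside a pair of broad domains on chromosome 6. The transfer RNA sequence occurred 7 times, 4 of them in broad domains. A read that lies wholly in a stretch found more than once could have come from any of its copies.

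The length of the domains ranged from 8000 to 139400 bp with a median of 9800 bp, and together they held 9891 kb. By length, 418 were under 10 kb, 298 were from 10 kb to under 15 kb, 63 from 15 kb to under 20 kb, and 50 were 20 kb or longer. At the limit itself, epithelium replicate 1 had 34 islands of 8000 bp and 51 of 7800 bp, and epithelium replicate 2 had 35 and 31. Islands of 8000 bp in replicate 1 with a gene start included those of Cacnb1 with 238 reads, Cnp with 217 and Xrcc3 with 252, and islands of 7800 bp those of Prkag1 with 211, Cox8a with 198 and Ndor1 with 186. In replicate 2 the corresponding islands of 8000 bp included Rnf167 with 230 reads, Cenpx with 257 and Mrpl52 with 217, and those of 7800 bp Slc25a10 with 238, Fasn with 271 and Vegfa with 229. The limit therefore divided a continuous series of similar islands.

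The first question was whether a broad domain of 1 epithelium library was found again in the other. Of the 603 broad islands of epithelium replicate 1, 552 (91.5%) were overlapped by an island of replicate 2, and of the 422 broad islands of replicate 2, 383 (90.8%) were overlapped by an island of replicate 1. Over all islands, of any length, the overlap was 55.1% for replicate 1 and 42.3% for replicate 2. A longer island has more chance to meet another by its length alone. The share of bases covered was also highest in the broad class: 62.2% of the bases of broad replicate 1 islands were covered in replicate 2, against 35.0% for islands of 4000 to 7800 bp and 32.9% for islands of 2000 to 3800 bp, although it was 47.0% for those of 200 to 1800 bp. For replicate 2 the values in replicate 1 were 65.6%, 40.3%, 27.7% and 27.9%. Recovery of an island was thus not recovery of its length. The median broad island was covered over 63.5% of its bases by the other library for replicate 1 and over 72.0% for replicate 2, and 171 of the 829 domains (20.6%) had an island of at least 8000 bp in both libraries. Of the rest, 419 were broad only in replicate 1, 239 only in replicate 2, with 51 and 39 domains, respectively, that had no island at all in the other library.

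**Figure D1:**
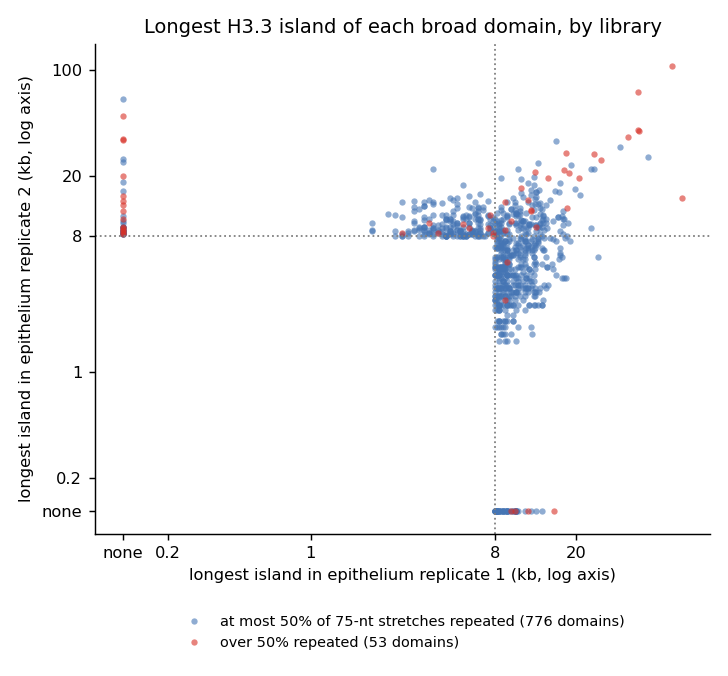
Length of the longest island overlapping each of the 829 broad domains in epithelium replicate 1 (x axis) and replicate 2 (y axis), in kb on log axes, with domains lacking an island placed at "none" and dotted lines at 8 kb. The 171 domains in the upper right quadrant were broad in both libraries, and 17 of the 20 repeated domains of 20 kb or more lie there.

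**Figure D2:**
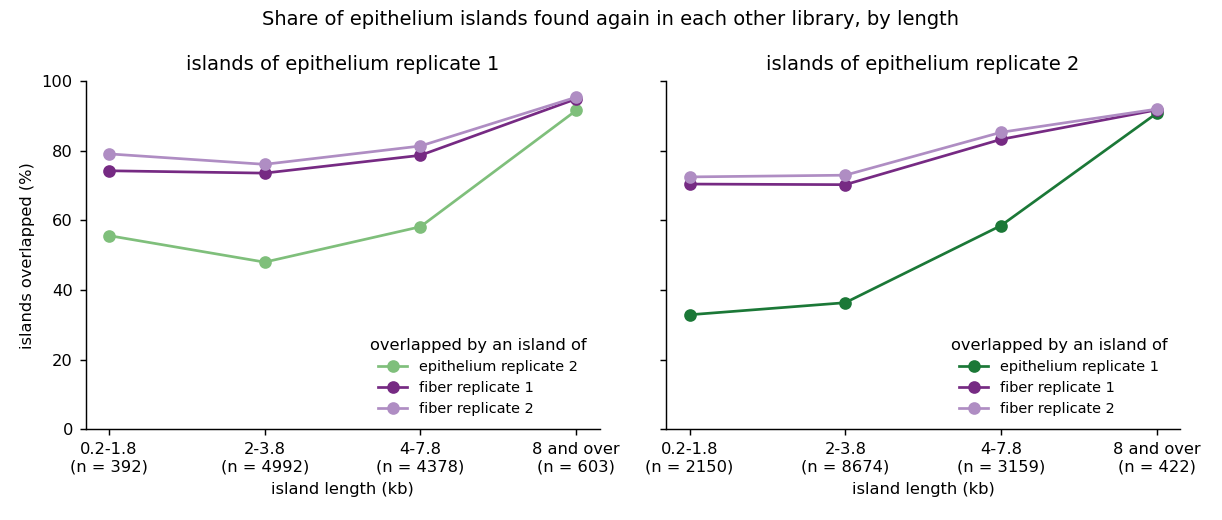
Percent of the islands of each epithelium library (left, replicate 1; right, replicate 2) overlapped by at least 1 island of each other library, by island length in kb, with the number of islands per class in brackets. In the class of 8 kb and over, all 6 values lie between 90.8% and 95.4%, and the value in the other epithelium library rises from 48.0% and 36.4% in the class of 2 to 3.8 kb.

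The domains were then placed on the genes. In 326 domains (39.3%) there was at least 1 protein-coding gene start, with 463 genes in all, 425 domains (51.3%) lay in or across a protein-coding gene without holding its start, and 78 (9.41%) lay outside protein-coding genes. When the start of any transcript was counted instead of the gene start, the share with a start was 61.6% and the number of genes 699. Of all merged epithelium regions 20.3% held a start, and the 463 genes were 2.23% of the 20807 protein-coding genes. A long region holds more of everything, so starts were also counted per length. Broad islands held 4.84 starts per 100 kb in replicate 1 and 4.57 in replicate 2, shorter islands 6.25 and 6.78, and the genome 0.845. Gene ends went the other way: broad islands held 6.47 and 6.005 gene ends per 100 kb, and shorter islands 4.22 and 4.04. In both libraries, then, shorter islands held more starts than ends, while broad islands held more ends than starts.

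The position of the start gave the same picture. In the 228 domains with exactly 1 start, the domain reached a median of 3697 bp upstream and 6708 bp downstream of it, and it reached farther downstream in 160 of them (70.2%). Among the shorter islands with 1 start the corresponding shares were 57.9% in replicate 1 and 58.98% in replicate 2, against 69.3% and 71.8% for broad islands. Whole genes lay in the domains in 218 of the 463 cases (47.1%), start and end included. Of the 425 gene-body domains, 294 (69.2%) were inside a single gene, and 143 held a gene end. The gene-body count includes 29 domains under Gm20388, a gene model of 4435 kb on chromosome 8, although only 5 of them were reached by no other gene. A single gene could carry several domains: Gse1, chosen after its values were seen, carried 13 gene-body domains of 141 kb in all.

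Broad domains were spread unevenly over the genome, as were all epithelium islands. Chromosome 11 had 124 domains, or 10.2 per 10 Mb, chromosome 17 had 8.53 per 10 Mb and chromosome 8 had 6.49, whereas chromosomes 13 and 18 had 0.498 and 0.551. Chromosome 11 has 134 protein-coding genes per 10 Mb and chromosome 13 has 69.6, but chromosome 7, with 139, had only 3.23 domains per 10 Mb, so the order was not that of gene density. Chromosome 11 held 14.96% of the domains, and 12.8% and 11.7% of all islands of epithelium replicates 1 and 2, and chromosome 7 held 5.67% of the domains and 7.21% and 7.32% of the islands. The 1 Mb window with the most domains was chr10:80000001-81000000, with 22, among them domains at Cirbp and, chosen after their values were seen, Dazap1, Mbd3 and Gadd45b. Next came chr8:120000001-121000000, with 17 domains, 13 of them under Gse1, and chr17:6000001-7000000, with 14 domains of which 12 were of repeated sequence. Of the 810 distances between neighbours, 169 were at most 20 kb. The median GC content of the domains was 52.7%.

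Fibers, which derive from the epithelium, were compared next. Of the 829 domains, 766 (92.4%) were overlapped by an island in both fiber libraries, 24 in 1 of them and 39 in neither. Over all merged epithelium regions 79.6% were overlapped by a fiber island. The median cover of a domain was 93.2% in fiber replicate 1 and 91.1% in fiber replicate 2, and 92.0% for the mean of both, against 100% and 79.4% in epithelium replicates 1 and 2, in which the domains were chosen. This cover was close to that of short islands: epithelium islands of 2000 to 3800 bp had median covers of 93.75% and 88.9% in the fiber libraries for replicate 1, and 93.3% and 87.5% for replicate 2. In 556 domains (67.1%) an island of at least 8000 bp was present in both fiber libraries, and 200 domains lay wholly under fiber islands in both. When each fiber list was cut to 10365 islands, the size of the smaller epithelium list, the median cover was 89.0% with the islands of most reads and 73.4% with the densest islands. Ranked among the islands of its own library by reads per kb, the longest island at each domain lay at a median percentile of 83.1 and 83.7 in the fiber libraries, and of 61.9 and 64.7 in the epithelium libraries, in which the domains were chosen.

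Cover in fibers differed with the place of the domain. The median was 94.2% for domains with a gene start, 91.3% for gene-body domains and 58.7% for domains outside protein-coding genes. Of the 78 domains outside genes, 23 (29.5%) had no fiber island, against 3 of 326 (0.920%) with a gene start and 13 of 425 (3.06%) in gene bodies. Of those 78 domains, 27 were also made mostly of repeated sequence.

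**Figure D3:**
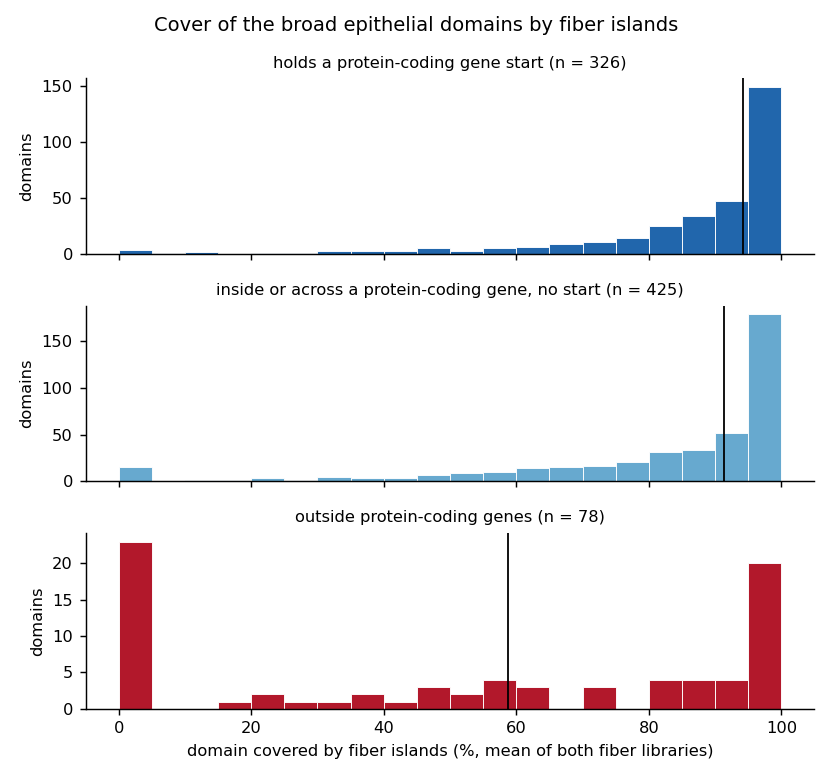
Number of broad domains (y axis, a separate scale per panel) by the percent of the domain covered by fiber islands (x axis, mean of both fiber libraries), for domains with a protein-coding gene start, in gene bodies and outside genes, with the median as a vertical line. The medians are 94.2%, 91.3% and 58.7%, and the lowest panel has a peak at 0 as well, where 23 of its 78 domains lie.

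Among the genes fixed for description, 7 of 18 annotated cytoskeletal and abundant genes (38.9%) had a start in a broad domain, 3 of 16 crystallin genes (18.8%) and 5 of 30 lens epithelium genes (16.7%), against 2.23% of all protein-coding genes. The number was 3 of 19 for capsule and matrix genes, 3 of 20 for annotated chromatin regulator and H3.3 genes, 2 of 21 for annotated immediate early and stress genes and 2 of 26 for lens and eye transcription factors. No start lay in a broad domain for 24 lens fiber genes, 22 signalling genes, 15 annotated imprinted genes and 67 replication-dependent histone genes. At the 2.23% share of all genes, lists of 15 to 24 genes would hold few or none. Of the 24 lens fiber genes, 12 (50%) had a start in a shorter epithelium island. An epithelium island of any length held the start of 15 of 30 lens epithelium genes (50%). These counts take either epithelium library. In both libraries the start lay in an island for 1 of the 24 fiber genes and 6 of the 30 lens epithelium genes. Among all 20807 protein-coding genes the number was 1495. The fiber gene Bfsp2, chosen after its values were seen, had a broad domain of 13000 bp away from its start. The histone genes were not without H3.3 islands, since 53 of the 67 (79.1%) had a start in a shorter epithelium island, against 21.2% of all protein-coding genes with a start in an epithelium island of any length.

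For single genes, island lengths are those of the longest island over the gene's domain in each library, which need not hold the start, and a gene is called broad where that island reached 8000 bp. The crystallin genes with a start in a broad domain were Cryaa, Crybb3 and Cryba1. Cryaa encodes αA-crystallin, a small heat shock protein and chaperone of the lens. Its domain, chr17:31675801-31694200, was 18400 bp long, and the longest island over it measured 17000 and 10800 bp in epithelium replicates 1 and 2 and 28400 and 28200 bp in fiber replicates 1 and 2. The island was thus broad in all 4 libraries. Crybb3, a β-crystallin gene, had a domain of 11600 bp with islands of 10600, 11600, 41000 and 51000 bp in the same order. Cryba1, which encodes βA3/A1-crystallin, was broad only in epithelium replicate 2, with 3800, 8400, 26600 and 26400 bp. All 3 genes lay entirely inside their domains. In the fiber libraries, which have more reads in islands, 13 of the 16 crystallin genes had a start in an island of at least 8000 bp in both, against 7.11% of all protein-coding genes.

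Slc2a1 had the longest domain among listed genes with a start in one. It encodes GLUT1, the main glucose transporter of the lens epithelium. The domain, chr4:119106601-119142800, spanned 36200 bp and the whole gene, and islands covered 94.5% and 95.6% of it in the epithelium libraries and 100% in both fiber libraries. The longest island was 23600 and 22000 bp in epithelium and 37200 and 38800 bp in fibers. Its islands held 33.9 and 32.3 reads per kb in the epithelium libraries, and 42.6 in each fiber library. The start itself lay in an island of 4400 bp in epithelium replicate 1 and of 22000 bp in replicate 2. Both replicates of each compartment were close in the length of the longest island, but its place differed in epithelium. It lay at 10.5 to 34.1 kb from the start in epithelium replicate 1 and at -2.11 to 19.9 kb in replicate 2.

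Pax6, the transcription factor needed for lens formation, carried a pair of domains that together held 97.2% of the gene. The domain at the start, chr2:105666601-105677000, was 10400 bp long, with islands of 4600 and 10400 bp in epithelium and 21000 and 22800 bp in fibers. The other, chr2:105677801-105707200, was 29400 bp long and lay over the gene body and its end, with islands of 12000 and 15000 bp in epithelium and 16200 and 21600 bp in fibers. The gene ends 28.5 kb from its start, and the island of 15000 bp lay at 23.3 to 38.3 kb, that of 21600 bp at 17.9 to 39.5 kb. Epithelium replicate 2 had another island of 10000 bp over the body, at 8.90 to 18.9 kb. The island of 22800 bp at the start in fiber replicate 2 also reached the first bases of this second domain. Only the second domain was broad in both epithelium libraries. Mafg, a small Maf transcription factor gene, had a domain of 13600 bp that was broad in all 4 libraries, at 10600, 12200, 46000 and 43200 bp.

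Other genes of the epithelial list reached broad length in 1 or both libraries. Id3, an inhibitor of helix-loop-helix factors, was broad in both epithelium libraries with 12200 and 10600 bp, and had 12400 and 18800 bp in fibers. Ccnd1, the cyclin D1 gene, had 16000 bp in epithelium replicate 1 but 4400 bp in replicate 2, and 21600 and 24200 bp in fibers. Hes1, a Notch target and repressor, had 6000 and 8200 bp in epithelium and 12400 and 13600 bp in fibers. Of the 9 Hes and Hey genes, a family listed after the values were seen, 5 had a start in a broad domain, against 2.23% of all protein-coding genes. They were Hes1, Hes3, Hes5, Hes7 and Heyl, of which Hes7 was broad in both epithelium libraries. In both fiber libraries 6 of the 9 had a start in an island of at least 8000 bp, against 7.11% of all protein-coding genes. The Notch1 gene, also chosen after its values were seen, carried 36.4 kb of broad domains inside its body, which was 61.9% of the gene, although its start was in none.

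Genes of the lens capsule, the basement membrane of the lens, were reached by a broad domain, at the start or elsewhere, in 6 of 19 cases (31.6%), against 4.84% of all protein-coding genes. The same share was 33.3% for lens epithelium genes, 50% for cytoskeletal and abundant genes and 25% for chromatin regulator and H3.3 genes. It was 18.75% or less in the other lists measured this way. Longer genes are reached more often by their length alone, and the capsule list had a median gene length of 67.7 kb, against 17.6 kb over all genes. The median of the lens epithelium list was 28.6 kb. Its reached genes included Fgfr2 and Trpm3, chosen after their values were seen. Their gene models span 2961 and 856 kb, with 1.15% and 3.53% in broad domains. Among capsule genes the start lay in a domain for Col4a1, Col4a2 and Lamb2. Col4a1 and Col4a2, which encode collagen IV chains, share a bidirectional start region with a domain of 8600 bp, whose islands were 8600 and 3600 bp in epithelium and 116000 and 67600 bp in fibers. Only 1.42% of Col4a1 lay in it. A further 5 domains lay along the Col4a2 body, so that 41.4% of its 136 kb was in broad domains. Hspg2, the gene for perlecan, a heparan sulfate proteoglycan, had 4 domains that held 60.9% of its 102 kb. The longest of them, chr4:137472801-137512200, was among the 15 longest of all, with islands of 19000 and 23400 bp in epithelium and 60800 and 76800 bp in fibers. Lamb2, a laminin chain gene, had islands of 8400 and 5000 bp in epithelium and 6400 and 3200 bp in fibers.

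The abundant genes Cfl1, Eef2, Hsp90ab1 and Tuba1b each lay entirely inside a domain that was broad in both epithelium libraries. Cfl1, which encodes the actin-binding protein cofilin, lay with Mus81 in a domain of 21200 bp and had islands of 15000 and 13800 bp in epithelium and 35000 and 23600 bp in fibers. Eef2, a translation elongation factor gene, had 13400 and 11200 bp in epithelium and 45000 and 19800 bp in fibers. Hsp90ab1, a chaperone gene, had 12800 and 14400 bp in epithelium and 19200 and 13800 bp in fibers. Tuba1b, an α-tubulin gene, had 11400 and 8200 bp in epithelium and 8800 and 7800 bp in fibers. Actg1, Gapdh and Tubb5 were broad in 1 epithelium library each. Of 81 ribosomal protein genes, listed after the values were seen, 15 (18.5%) had a start in a broad domain, among them Rpl7a, Rps15 and Fau. The share over all protein-coding genes was 2.23%. In both fiber libraries 47 of the 81 (58.0%) had a start in an island of at least 8000 bp, against 7.11% of all protein-coding genes.

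Immediate early and chromatin genes appeared in small number. The AP-1 genes Junb and Jund both had domains of 11000 bp, broad only in epithelium replicate 2, where the islands measured 11000 bp against 6600 and 5800 bp in replicate 1. Chd4, a chromatin remodeller gene, was broad only in epithelium replicate 2, with 9800 bp, and Kdm6b, a histone H3 lysine 27 demethylase gene, and Kmt2d, a histone H3 lysine 4 methyltransferase gene, only in replicate 1, with 8600 and 9800 bp. In replicate 2 the Kmt2d domain at the start had an island of 2400 bp, but a second domain of 11000 bp, broad in replicate 2 only, also lay on the gene, and both together held 46.55% of it. The H3.3 gene H3f3b, chosen after its values were seen, had 80.8% of its length but not its start in a domain, with islands of 10600 and 7800 bp in epithelium and 7000 and 7400 bp in fibers.

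**Figure D4:**
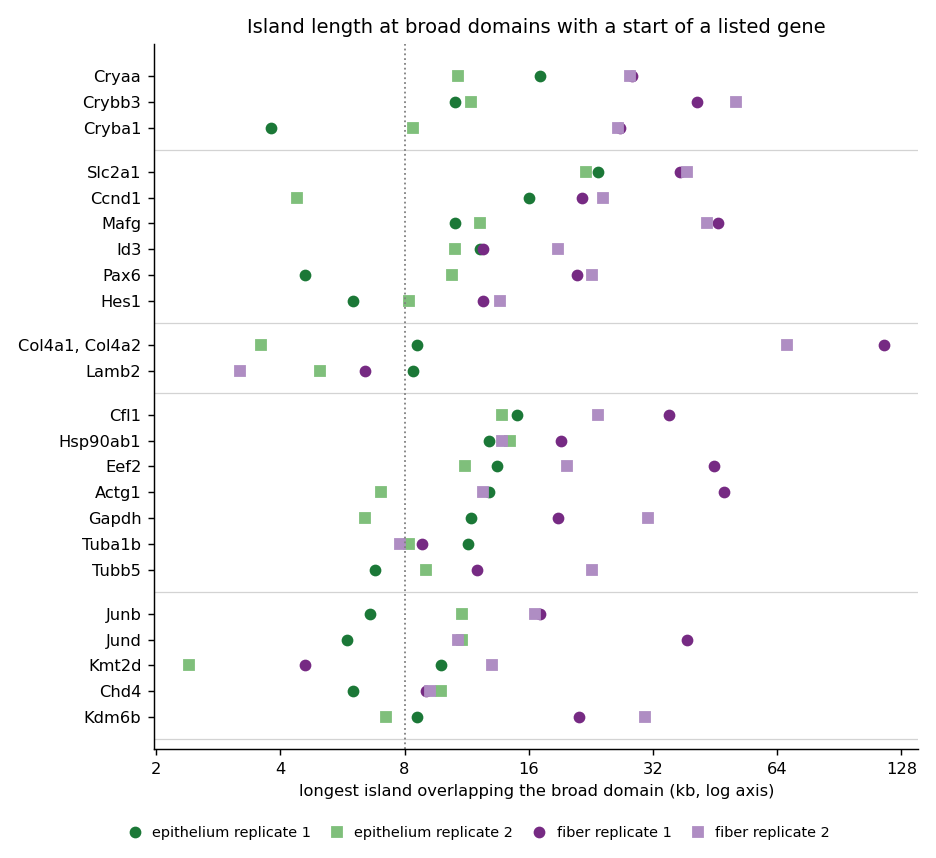
Longest island overlapping the broad domain at the start of each listed gene, in kb on a log axis, for the 2 epithelium and 2 fiber libraries, with a dotted line at 8 kb. At Cryaa the values are 17000, 10800, 28400 and 28200 bp, and the fiber libraries, with more reads in islands, are not comparable in length with the epithelium libraries.

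Several domains held many starts. Among equal numbers the longer domain was taken first. The largest number was 5, in a domain of 21200 bp with Jmjd8, Stub1, Rhbdl1, Gm20683 and Rhot2, which had islands of 21000 and 15000 bp in epithelium and 32400 and 21400 bp in fibers. Domains with 4 starts were those of Hdhd3, Alad, Pole3 and 4933430I17Rik, of Elp5, Gabarap, Phf23 and Dvl2, of Med22, Rpl7a, Surf2 and Surf1, of Mrpl49, Fau, Znhit2 and Tm7sf2, of Rnf167, Slc25a11, Pfn1 and Eno3, and of Gm49661, Prdx2, Rnaseh2a and Junb, and a repeated domain of 37000 bp with Gm6408, Gm6370, 4930449I24Rik and Gm3402, whose islands measured 24600 and 27800 bp in epithelium, none in fiber replicate 1 and 3400 bp in fiber replicate 2. The Alad domain, at the gene for a heme synthesis enzyme, had islands of similar length in all 4 libraries, with 33000 and 31200 bp in epithelium and 34200 and 31800 bp in fibers. The domain of Midn, Cirbp and 1600002K03Rik reached 38000 bp, and its islands measured 16000, 34200, 49600 and 44600 bp. A domain of 23600 bp with Paqr6, Bglap3 and Bglap2 completed the 10 with the most starts. In all, 98 domains held more than 1 start.

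Repeated sequence set apart another group of domains. In 53 of the 829 (6.39%), over 50% of the 75-nt stretches occurred more than once in the genome, against 2.13% of all epithelium islands. Among the 50 domains of at least 20 kb, 20 were of this kind. Only 12 of the 53 held a gene start and 27 lay outside protein-coding genes. They were broad in both epithelium libraries in 23 cases (43.4%), against 148 of 776 (19.1%) for the other domains. Their median length was 13400 bp, against 9800 bp. An island of any length was present in both epithelium libraries less often, in 34 of the 53 (64.2%), against 705 of 776 (90.9%). In fibers, 22 of the 53 (41.5%) had no island, against 17 of 776 (2.19%). Their median density was also higher, 35.9 and 36.8 reads per kb in the epithelium libraries against 29.4 and 29.8.

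Some repeated clusters were broad in every library. The longest domain of all, chr6:114499001-114638400, held no annotated gene start, and had islands of 59000 and 106200 bp in epithelium and 60000 and 145800 bp in fibers. The longer 4.5S RNA domain, chr6:47646601-47687000, had 40400 bp in both epithelium libraries and 40600 and 41400 bp in fibers, at 93.8, 92.7, 93.3 and 92.9 reads per kb. These values were as even across compartments as between replicates. A domain of 21800 bp at Fcgr3 held 15 transfer RNA genes, with 63.5 and 63.6 reads per kb in the epithelium islands, and 101.7 and 101.4 in those of fibers. In all, 9 domains held 41 transfer RNA genes. A domain of 35400 bp made wholly of repeated stretches held Ccl27b, a chemokine gene, and Il11ra2, an interleukin receptor gene, and had islands of 17800 and 28400 bp in epithelium and 19600 and 29000 bp in fibers. On chromosome 17 the Dynlt1 genes, which encode dynein light chains, formed a cluster with Dynlt1b in a domain of 82600 bp, whose islands measured 40400, 72200, 46600 and 34200 bp.

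Other long domains had no island called in fibers. Of the 39 domains without any fiber island, 13 had islands in both epithelium libraries, 10 only in replicate 1 and 16 only in replicate 2, and 22 were of repeated sequence. The 10 longest of the 39 held genes in 2 cases. The first, of 21600 bp on chromosome 10, held AW822073, Duxf3 and Gm4981. Duxf3 belongs to the Dux family of double homeobox genes, which are known for activity in the early embryo and lie in tandem copies. Its islands measured 19800 and 16400 bp, at 107.6 and 106.6 reads per kb, against a median of 29.6 and 30 over all domains. The other, of 16600 bp at 1600014C10Rik on chromosome 7, had islands of 16600 and 15600 bp at 79.7 and 72.4 reads per kb, and only 0.448% of its stretches were repeated. Neither domain had a fiber island over it, and in both the epithelium libraries were close to each other. Just past the end of the 1600014C10Rik domain, however, fiber replicate 1 had an island of 1600 bp with 121 reads. It overlapped an island of 1800 bp with 155 reads in epithelium replicate 1. Without a gene start, a domain of 40600 bp, chr8:55345601-55386200, had islands of 40600 and 39400 bp, and another of 66600 bp on chromosome 11 had 66600 and 14200 bp. The remaining 6 of the 10 were present only in epithelium replicate 2, 4 of them on chromosome 8, with 50000, 35200, 34400 and 19800 bp.

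Presence also differed between the replicates of a compartment in places. Islands in all 4 libraries were found at 713 domains (86.0%). At 5 domains, islands were found in replicate 2 of each compartment and in neither replicate 1, and at 1 domain of 8000 bp the reverse. A mixed pattern, with islands in epithelium replicate 1 and fiber replicate 2 only, was as frequent, at 5 domains of up to 10200 bp. The 5 domains found only in replicate 2 of each compartment held 116.2 kb, and the 5 of the mixed pattern 43.4 kb. Whether presence followed replicate number was not tested. The longest domain found only in replicate 2 of each compartment was that of Cwc22, a splicing factor gene, chr2:77887201-77951800. Its islands measured 64600 bp in epithelium replicate 2 and 64800 bp in fiber replicate 2, at 96.5 and 104.3 reads per kb, and no island was called in epithelium replicate 1 or fiber replicate 1. Domains of 18200 and 9000 bp in the same region had the same pattern, and a domain of 25800 bp next to that of Cwc22 was found only in epithelium replicate 2, at 80.4 reads per kb. In the reference genome only 1.57% of the Cwc22 stretches were repeated. The labels name no difference between replicates 1 and 2, and what the replicates 2 shared was not tested. Mroh2a, in the longest domain without repeated sequence that was broad in both epithelium libraries (46000 bp), had islands of 45200 and 26600 bp in epithelium and 40200 and 10600 bp in fibers, with 98.26%, 96.96%, 50.43% and 33.04% of the domain covered.

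**Figure D5:**
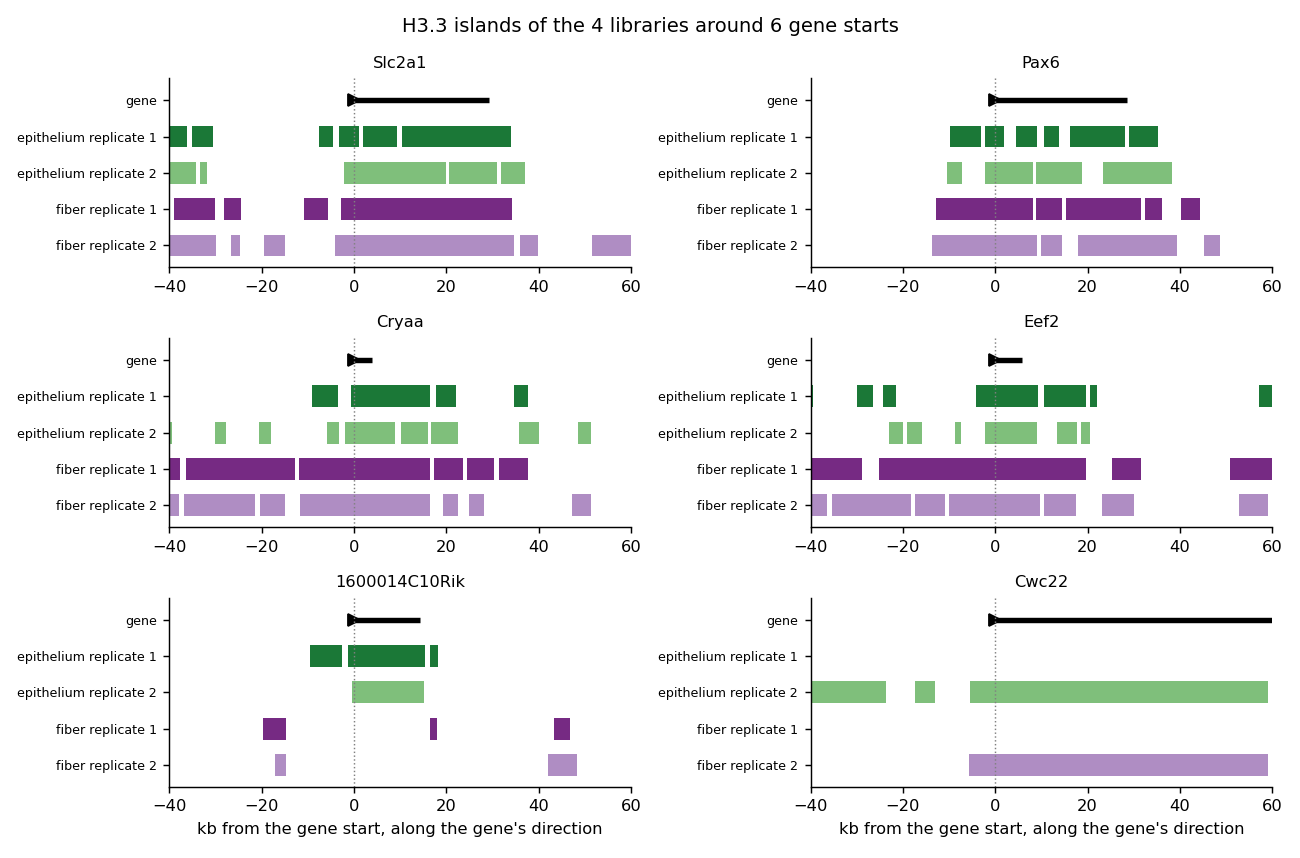
Islands of the 2 epithelium and 2 fiber libraries (coloured bars) around the starts of 6 genes, with the distance from the start in kb along the gene's direction (x axis) and the gene as a black line. At Slc2a1, Pax6, Cryaa and Eef2 all 4 libraries have islands over the start, at 1600014C10Rik only the epithelium libraries do, and at Cwc22 only replicate 2 of each compartment does.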

How the data were processed

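H3.3 ChIP-seq of newborn lens epithelium and fibers was analysed from the deposited island lists, 1 per library. The authors mapped 75-nt single-end reads to mm10 with BWA (aln and samse, default settings) and called islands with SICER2 in each library (window 200 bp, gap 600 bp, false discovery rate 0.01), and the deposited read counts per island are the only values. A pooled input was sequenced (not analysed here). Whether it was used in calling, the treatment of duplicates and total depth are not given in the sources used here.

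Broad islands were merged, and cover, gene starts (GENCODE M21), sequence content and the share of 75-nt stretches found more than once in the genome were computed with Python 3.11.15, numpy 2.4.6, pandas 2.3.3, numba 0.67.0 and matplotlib 3.10.9. Interval steps were tested on simulated data. With 2 libraries against 2, an exact permutation test cannot give a p below 0.333, so no test was made. Named were genes at the 15 longest domains, the 10 longest broad in both epithelium libraries, the 10 longest without a fiber island, the 10 with the most starts, the 5 most repeated, 3 on each side of the length limit, and listed genes with a start in a domain. Domains and lists were chosen with earlier results of these data known. Some named items are not reported here. Alternatives covered the minimum length, overlap, libraries, fiber islands, repeats and annotation.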

Additional observations from a re-analysis of the deposited data

Results flagged for a closer look

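Chromosomes X and Y were outside the domains described, but both carried islands of at least 8000 bp in the epithelium libraries. On chromosome X these held 4683 reads in epithelium replicate 1 and 4512 in replicate 2, and on chromosome Y 5585 and 5323. A pooled input library is part of the series and was not analysed here, so no background was set for them. Most of the reads on chromosome X lay in an island of 52800 bp, chrX:169969801-170022600, with 4184 reads in epithelium replicate 1 and 4000 in replicate 2, and fiber islands over it held 4460 and 3846 reads in replicates 1 and 2. An island with 499 and 512 reads in the epithelium libraries was not called at broad length in fibers.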

How the results depend on the processing

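The 7 quantities of the report were recomputed under 59 alternatives, 23 of which stayed within the replicate spread or, for counts, within 1.5 times the reported count. With a minimum of 6000, 10000 and 12000 bp there were 2108, 400 and 217 domains, of which 76.2%, 92.2% and 92.6% were overlapped in the other epithelium library and 422, 87 and 44 were that long in both. The median cover of a broad island by the other library was 56.5%, 72.4% and 75.8%, the share with a gene start 32.9%, 44% and 45.2%, and the number of genes 920, 268 and 162, while the median fiber cover was 88.3% at 6000 bp. Leaving out 1 epithelium library gave 422 to 603 domains, 90.8% to 91.5% overlapped, a fiber cover of 92.6% to 95.6%, an island cover of 63.5% to 72.0%, a start in 37.7% to 38.8% and 229 to 331 genes. Without 1 fiber library the fiber cover was 91.1% to 93.2%. Without repeated domains 90.9% were overlapped and 40.5% held a start. Requiring 50% of a domain to be covered lowered the overlap to 63.7%. Fiber cover was 88.3% with islands of at least the median density, and 73.4% and 89.0% with as many fiber as epithelium islands, by density and by read count. The start of any transcript gave 61.6% and 699 genes, all gene types 52.0% and domains widened by 1 kb 41.9%. No paired analysis was possible because no value here comes from a test, and presence by replicate number is given in the report as a description.

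Island lists hold no reads outside islands, so the absence of an island is not the absence of H3.3. An island's length depends on depth, and whether depth differed between compartments is not known. Each compartment has 2 libraries. Reads that lie wholly in repeated sequence cannot be assigned to a copy.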
